A study of Mus musculus with 22 samples.

Results

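Chromatin loops and domain boundaries of mid-G1 nuclei were compared between cells that left mitosis with CTCF and cells that left it after auxin-induced loss of CTCF. The cells were G1E-ER4, a subline of the GATA1-null mouse erythroblast line G1E, kept without induction of GATA1. In all of them both CTCF alleles were fused to the auxin-inducible degron and mCherry, and the F-box protein OsTIR was supplied by a retroviral vector, so that the controls carried the same tagged alleles and the same OsTIR. The sort also differed, since -auxin cells were taken from the mCherry positive and +auxin cells from the mCherry negative gate. Cells were arrested in prometaphase with 200 ng/ml nocodazole, auxin was present in the last hours of the arrest and during the release where it was given, and mid-G1 cells were sorted on mCherry and DNA content 120 min after release. Of the 22 in situ Hi-C libraries of the series, 6 were mid-G1 libraries without triptolide, 3 without auxin (-auxin) and 3 with it (+auxin). The comparison covered every row of the deposited calls, 16370 loops and 6376 boundaries. The other stages used for reference were prometaphase (0 min), ana/telophase (30 min) and early-G1 (60 min), each with 2 libraries per treatment and none of them shared with mid-G1; in the ana/telophase cells the GFP expressed along with OsTIR carried a mitosis-specific degron, which served to enrich that stage.

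CTCF is a zinc finger protein that binds a long, non-palindromic DNA motif. In the loop extrusion model, cohesin reels in chromatin until it meets CTCF bound with its motif pointing into the loop, so that CTCF sites at both anchors tend to face each other. Contacts between cis-regulatory elements (CREs), such as promoters and enhancers, can form without CTCF at their anchors. Boundaries, across which contacts are depleted, often lie at CTCF sites, at active gene starts or at transitions between active and inactive chromatin. All of these features are largely lost in mitosis and rebuilt as cells enter G1.

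The replicates of each treatment had been merged by the authors before loop and boundary strengths were computed, so each loop and each boundary had 1 value per treatment and stage. These merged values carry no replicate error, so no test between treatments was run and a difference is described here by its size alone. The paper lists maps of the single replicates, which were not analysed here. Loops and boundaries are not replicates of a treatment. Loops were counted as weaker or stronger when +auxin and -auxin values differed by 1.5-fold or more, and medians over loops are given with quartiles and with the lowest and highest median among the 20 chromosomes, a spread over the genome that says nothing of the spread between cultures. Percentages carry 95% Wilson intervals, which cover counting error only. How many contacts lie behind a given loop is not analysed here, and how precise its value is remains unknown. Between the prometaphase maps, when loops are mostly absent, 9.52% of loops were weaker and 6.46% stronger past 1.5-fold, and in ana/telophase 20.4% were weaker and 0.886% stronger. Those maps also differ in auxin and merge fewer libraries, so neither pair measures the error of the mid-G1 values.

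The core of the CTCF motif is shown first, because the category with the lowest median change was defined by CTCF and cohesin peaks at both anchors, although most anchor bins did not hold it. The search was for CCA, any 2 bases, AGG, any base and GGC, which is the core of the CTCF motif, on both strands of the mm9 genome. Of 255583 bins of 10 kb, 8.48% held it. A looser form with any base in place of the A of CCA, which includes all of these matches, occurred in 19.6% of bins and served as an alternative. The dual-function loop of chr4:147540001-147550000 and chr4:147980001-147990000 had matches facing each other, the left on the forward strand at chr4:147542590-147542601 (a further match of that bin lay on the reverse strand) and the right on the reverse strand at chr4:147982075-147982086, where it overlaps an exon of Masp2. The strongest structural loop without auxin, on chromosome 8, had a match on the reverse strand in its right anchor, at chr8:96723569-96723580. A structural loop on chromosome 16 that was stronger with auxin also had one on the reverse strand in its right anchor, at chr16:93454688-93454699. The boundary at an exon of Susd1 was among the dual-function boundaries with the lowest change and had a reverse-strand match in the neighbouring bin, at chr4:59353787-59353798, in an intron of that gene. The boundary at Gsk3a was among those with the highest change and likewise had a reverse-strand match beside it, at chr7:26030507-26030518, in an exon of Erf. Each is printed 5′ to 3′ on the strand of the match, with the matched letters in capitals.
Fbxo2 to Masp2 loop, left anchor: acgtgtcagCCAGCAGGTGGCagccaaggg
Fbxo2 to Masp2 loop, right anchor: gaaatgctgCCATTAGGTGGCgccgttgga
strongest structural loop, right anchor: aagaattaaCCAGCAGGTGGCagcaaatgc
stronger structural loop at Runx1, right anchor: tctttgtggCCACTAGGTGGCgctcatgcg
boundary at Susd1, low with auxin: cgctcatggCCACCAGGGGGCaccgttgag
boundary at Gsk3a, high with auxin: ccaccagtgCCATCAGGCGGCagccatttc
The matched core was identical in the left anchor of the chromosome 4 loop and in the strongest structural loop. Loops and boundaries with changes in both directions had the match, and a match is a description of the letters and not a measured binding site.

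Loop strength is the ratio of observed contacts to those expected from the surrounding pixels, taken as the mean of 9 pixels centred on the summit, so that 1 means no enrichment. Over all loops the median mid-G1 strength was 1.90 in -auxin and 1.42 in +auxin cells. Single loops had a median log2 change of -0.38 (quartiles -0.81 and -0.03), and chromosome medians ran from -0.45 to -0.32. In all, 6014 of 16369 loops with a ratio (36.7%) were weaker past 1.5-fold and 463 (2.83%) were stronger. Past 2-fold, 2748 loops (16.8%) were weaker and 49 (0.299%) stronger. The authors sorted loops by ChIP-seq peaks within 30 kb around each anchor midpoint. The windows lie on summits called from these maps, while loop strength did not enter the sorting.

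Structural loops, with CTCF and cohesin at both anchors and a CRE at no more than 1 of them, had the lowest values with auxin. The median structural loop had 2.32 in -auxin and 1.28 in +auxin cells, a log2 change of -0.87 (quartiles -1.23 and -0.53). Of 4837 structural loops, 3450 (71.3%, interval 70.0 to 72.6%) were weaker past 1.5-fold and 6 (0.124%) were stronger, against 36.7% and 2.83% of all loops. Chromosome medians ran from -1.15 to -0.72, so every chromosome lay below the median of all loops. Taken at any size of change, 97.3% of structural loops were lower with auxin.

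Dual-function loops, which have CTCF, cohesin and a CRE at both anchors, lay between structural and CRE loops. The median dual-function loop had 1.93 in -auxin and 1.45 in +auxin cells, a log2 change of -0.44 (quartiles -0.80 and -0.08). Of 3370 loops, 1327 (39.4%, interval 37.7 to 41.0%) were weaker and 97 (2.88%) stronger past 1.5-fold, shares close to those of all loops.

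CRE loops, with CREs at both anchors and CTCF at no more than 1 of them, differed little on the median. Strengths were 1.62 and 1.60, and the median log2 change was -0.02 (quartiles -0.26 and 0.23). Of 4642 CRE loops, 333 (7.17%, interval 6.47 to 7.95%) were weaker past 1.5-fold and 305 (6.57%, interval 5.89 to 7.32%) were stronger. The share of stronger loops exceeded the 2.83% of all loops, and CRE loops made up 305 of all 463 stronger loops. Of these 305, 254 were called with auxin only, and 302 of the 333 weaker ones without auxin only. Calls with auxin only made up 1410 of the 4642 CRE loops but 72 of the 4837 structural loops. Entry into the table thus differs between categories, and its part in these counts was not tested. In prometaphase, 7.13% of CRE loops were weaker and 7.22% stronger, and the shares were 3.43% and 1.92% in ana/telophase and 5.88% and 5.67% in early-G1. The loops that changed in mid-G1 mostly had the same sign in early-G1, with 95.2% of the weaker and 95.4% of the stronger CRE loops, against 53.8% and 52.5% in prometaphase. Of all CRE loops, 49.2% had a negative change in early-G1 and 50.8% in prometaphase. The CRE counts also depended on the scale, with 64 weaker and 1243 stronger when centred on all loops and 184 and 93 with a pseudocount of 0.5. The 3521 loops of no category had a median of -0.30, with 904 weaker (25.7%) and 55 stronger (1.56%).

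These directions are on the scale of the deposited ratios. When each change was taken relative to the median of all loops, which lay at -0.38, the counts over all loops became 3011 weaker and 1998 stronger, in place of 6014 and 463, and the median CRE loop lay at 0.36, the uncategorised loop at 0.08, the dual-function loop at -0.06 and the structural loop at -0.49.

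**Figure D1:**
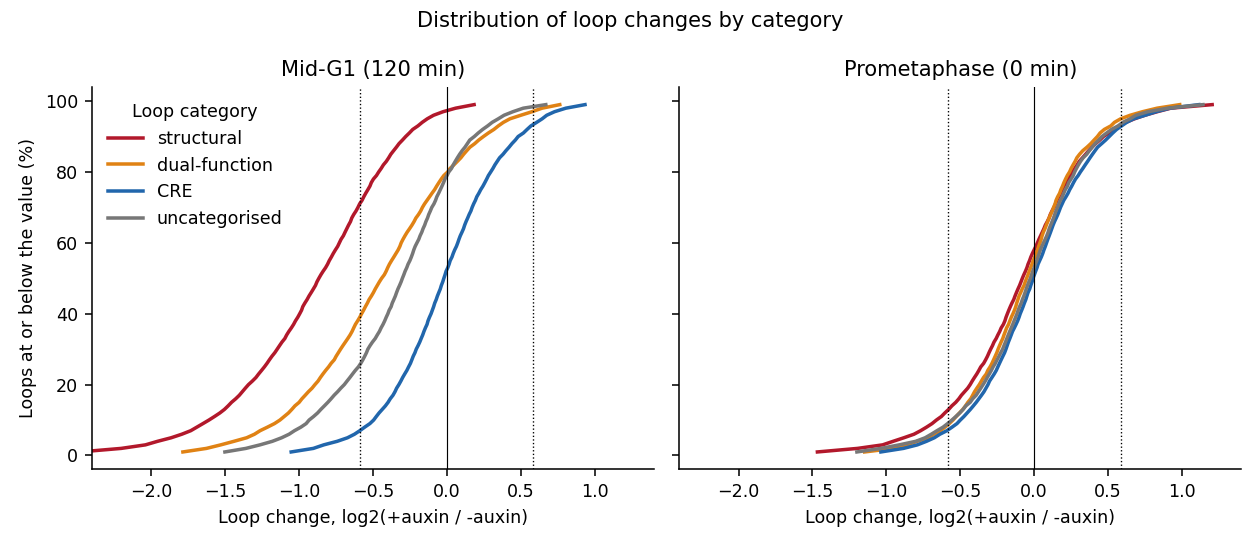
Cumulative share of loops (%, vertical axis) at or below a given log2(+auxin / -auxin) (horizontal axis) in mid-G1 (left) and prometaphase (right), from the 1st to the 99th percentile, 1 line per category, with dotted lines at 1.5-fold in each direction. In mid-G1 the structural line is displaced to the left, with 71.3% of loops at or below the left dotted line and 7.17% of CRE loops, while in prometaphase the lines lie closer together, with 12.8% of structural and 7.13% of CRE loops there.

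Structural loops had larger log2 differences at larger sizes, where they were also stronger without auxin, so size and strength vary together. In -auxin cells their median strength was 1.80 up to 150 kb, 2.40 between 150 and 250 kb, 2.78 between 250 and 500 kb and 2.75 beyond 500 kb, while in +auxin cells it stayed between 1.16 and 1.36 in the 4 classes. On the log2 scale the median difference was -0.65 in the shortest class and -0.89, -1.001 and -0.99 in the longer ones. The share weaker past 1.5-fold was 57.7% up to 150 kb and 79.6% beyond 500 kb. Over the same range of sizes the +auxin strength of CRE loops was 1.395, 1.65, 1.74 and 1.84, close to the -auxin values of 1.41, 1.61, 1.75 and 1.94.

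Dual-function loops did not follow structural loops in this. Their median log2 change was -0.45 up to 150 kb, -0.49 between 150 and 250 kb, -0.50 between 250 and 500 kb and -0.30 beyond 500 kb, and the +auxin strength of the longest class was 1.79 against 1.36 for structural loops of that size. The difference between the longest and the shortest class was 0.15 for dual-function loops, less than the SD of 0.20 of that difference over chromosomes, and it changed sign, to -0.09, among loops with a 10 kb summit. For structural loops it was -0.34 over all loops and -0.69 among those with a 10 kb summit.

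**Figure D2:**
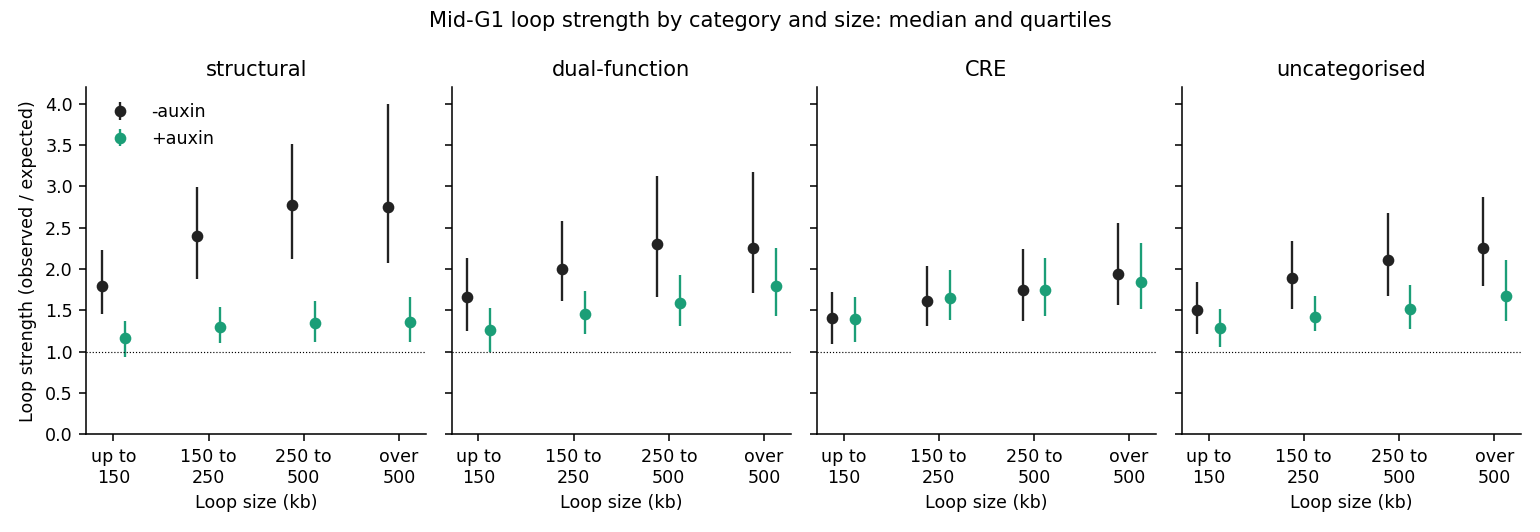
Median mid-G1 loop strength (observed / expected, vertical axis) with its quartiles as vertical lines, in 4 classes of loop size in kb (horizontal axis), for -auxin (black) and +auxin (green), 1 panel per category. The gap is widest in structural loops over 250 kb, from about 2.78 to 1.35, and is smallest in CRE loops, where the medians are 1.75 and 1.74 between 250 and 500 kb and 1.94 and 1.84 beyond 500 kb.

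To set the change beside loop strength, loops were divided into 4 strength classes of nearly equal number by their -auxin strength in early-G1. That strength was measured in other libraries than the mid-G1 values. In every category the median change was lower in each stronger class. Structural loops had a median log2 change of -0.52 in the weakest class (strength up to 1.44 in early-G1) and of -1.22 in the strongest (2.35 and above), where 91.7% of 1729 loops were weaker past 1.5-fold. Dual-function loops had -0.09 and -0.80. CRE loops had 0.12 in the weakest class and -0.22 in the strongest, and their shares of stronger loops were 13.0% and 1.55%. A loop entered the table by being called in at least 1 of the maps, so a loop that is weak without auxin had to be called elsewhere, and the higher values of weak CRE loops are open to that selection, the part of which was not tested.

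Within each class the categories still differed, and even the weakest structural class (-0.52) lay below the strongest CRE class (-0.22). Of the structural loops with a strength of at least 2 in early-G1 -auxin cells, 2478 in number, 97.0% kept at least 2 in mid-G1 without auxin and 10.5% had it with auxin. A strength of at least 1.5 was found with auxin for 43.5% of them. For the 1316 CRE loops of the same early-G1 strength, 77.4% had at least 2 in mid-G1 without auxin and 57.6% with auxin, and 90.8% had at least 1.5 with auxin. For the 1516 dual-function loops, 89.6% had at least 2 without auxin and 28.0% with auxin, and 67.5% had at least 1.5 with auxin.

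**Figure D3:**
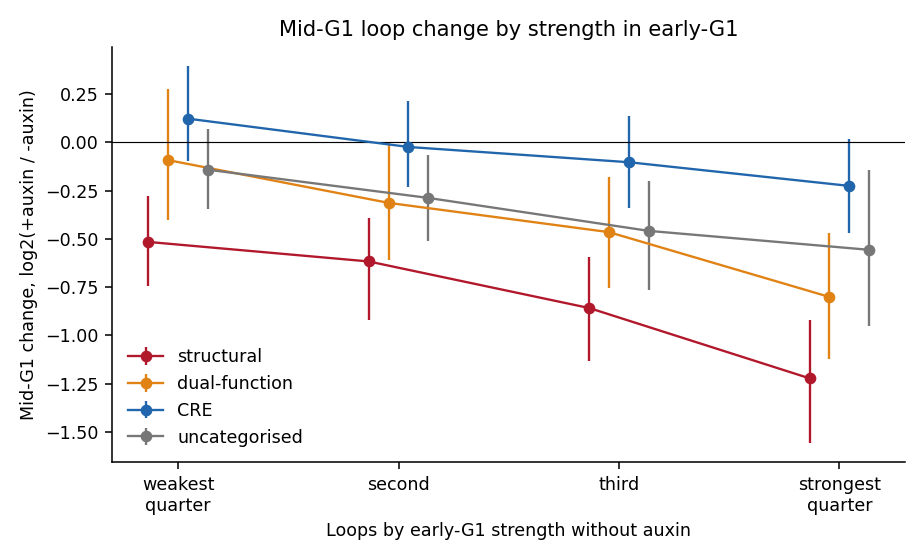
Mid-G1 log2(+auxin / -auxin) of loops (vertical axis, median as a point and quartiles as lines) by class of their early-G1 -auxin strength, from the weakest (1) to the strongest (4) (horizontal axis), for the 4 categories. All lines descend, from -0.52 to -1.22 for structural and from 0.12 to -0.22 for CRE loops, with dual-function and uncategorised loops between them.

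The deposited labels also say in which treatment a loop was called and at which stage it was called first. Since these calls used the same maps, they are given as a description. Of structural loops, 4578 were called without auxin only, 187 in both treatments and 72 with auxin only. The 187 in both had median strengths of 2.29 and 1.67 and a median log2 change of -0.40, so loops called in both treatments were still weaker in mid-G1. Of CRE loops, 2064 were called without auxin only, 1168 in both and 1410 with auxin only, with medians of -0.22, 0.01 and 0.27. Mid-G1 was the stage of the first call for 2257 structural loops without auxin and for 73 with auxin, and for 874 and 422 CRE loops. Structural loops already called in ana/telophase without auxin, 717 in number, had the highest median strength in mid-G1, 3.15, and the lowest median change, -1.14.

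Single loops show the range of these values. They were taken by rule among loops with a 10 kb summit and a mean strength of at least 1.5 over both mid-G1 maps, chosen for their extreme values, so their sizes are a description. The strongest structural loop without auxin joined chr8:95530001-95540000 to chr8:96720001-96730000, 1190 kb apart, with no protein-coding gene in either bin. In mid-G1 it stood at 16.2 in -auxin and 1.51 in +auxin cells, and in early-G1 at 4.79 and 1.37. The next, at an exon of Rgs6, a regulator of G protein signalling, spanned 620 kb on chromosome 12 from chr12:84210001-84220000 to chr12:84830001-84840000. Its strength was 13.9 without and 3.74 with auxin, and 2.67 and 2.52 in prometaphase, so its +auxin value in mid-G1 lay above both mitotic values. The lowest change among structural loops was at an intron of Tdrd3, a Tudor domain protein, on chromosome 14, where 9.72 without auxin faced 0.611 with auxin over 1520 kb.

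Only 6 structural loops were stronger past 1.5-fold. Of those with a 10 kb summit and a mean of at least 1.5, the one with the highest log2 change, 0.81, joined the start of Top2a, which encodes the topoisomerase II that resolves entangled DNA in mitosis, at chr11:98880001-98890000 to a bin 180 kb away. Its strength was 1.126 without and 1.98 with auxin in mid-G1, and 1.02 and 2.13 in early-G1. The next, with 0.71, joined the start of Runx1, a haematopoietic transcription factor, at chr16:92690001-92700000 to the bin whose motif is printed above, 760 kb away. It had 1.49 without and 2.44 with auxin in mid-G1, but 2.61 and 1.88 in early-G1, where the order was opposite. Both loops had a gene start in the left anchor bin and no protein-coding gene in the right.

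The dual-function loop with both motifs printed above joined an exon of Fbxo2, an F-box protein that recognises glycoproteins, to exons of Masp2, a complement protease, and Tardbp, an RNA-binding protein, 440 kb away. Its strength was 4.50 without and 0.929 with auxin in mid-G1, 3.27 and 1.131 in early-G1, and 1.53 and 0.838 in prometaphase. The strongest and also lowest-changing dual-function loop lay at an exon of Aldh8a1, an aldehyde dehydrogenase, at chr10:21100001-21110000, with 10.2 without and 1.58 with auxin. At the other end, the loop between an exon of Ctse, the protease cathepsin E, and the start of Nucks1, a chromatin-associated protein, had 0.720 without and 2.40 with auxin over 250 kb, but 0.856 and 0.927 in early-G1. The loop between the starts of E2f4 and Elmo3 and an exon of Fam65a, 310 kb apart on chromosome 8, had 0.881 without and 2.12 with auxin in mid-G1 and 1.29 and 2.13 in early-G1. E2f4 is a cell cycle transcription factor of the E2F family.

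The 2 strongest CRE loops differed in how far they were lower with auxin. The strongest joined an exon of Abce1, a ribosome recycling factor, to an exon of Smarca5, the ATPase of ISWI chromatin remodellers, over 1040 kb from chr8:82210001-82220000 to chr8:83250001-83260000. Its strength was 9.35 without and 6.94 with auxin, and 3.08 and 3.69 in prometaphase. The next, of 190 kb at an intron of Fam163a, had 9.17 and 5.30, which is -0.79 on the log2 scale. The lowest change was between Cdh23 and Psap, the gene of the lysosomal protein prosaposin, and the start of Slc29a3, a nucleoside transporter, with 6.12 without and 1.504 with auxin. The loop between the starts of Foxo3, a forkhead transcription factor, and Snx3, a sorting nexin of endosomal recycling, from chr10:41990001-42000000 to chr10:42220001-42230000, had 1.04 without and 2.39 with auxin, 1.38 and 2.62 in early-G1 and 1.37 and 1.66 in prometaphase. The loop between an exon of Cog3, a Golgi tethering protein, and the starts of 1200011I18Rik and Nufip1, which acts in small nucleolar particle assembly, had 1.15 without and 2.75 with auxin. Both loops crossed 1 boundary.

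Among uncategorised loops, the strongest was nearly equal in both treatments, with 13.3 and 13.0 over 1020 kb on chromosome 1, and it was as strong as 10.5 and 8.44 in prometaphase. A loop between the starts of Tctn2, a ciliary protein, and Dnahc10, a dynein heavy chain, had 12.9 and 9.45 in mid-G1 and 6.84 and 6.82 in prometaphase. Both loops therefore stood high in mitotic cells as well. The lowest change, 6.48 without and 0.439 with auxin, was between exons of Col22a1, a collagen, and Ptk2, the focal adhesion kinase, 1300 kb apart. Kdm3a, a histone H3K9 demethylase, had at its start a loop to an exon of Ptcd3, a mitochondrial ribosome factor, with 1.38 without and 2.77 with auxin in mid-G1 and 2.93 and 3.59 in prometaphase.

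Sequence was then set beside the loop changes. Among loops with a 10 kb summit, 26.8% of 5988 distinct anchor bins of structural loops and 27.6% of 4141 of dual-function loops held the motif, against 14.9% of 5422 for CRE loops, 15.7% of 4828 for uncategorised loops and 8.48% of all bins. Structural loops with matches facing each other (205 loops, 5.32% of the category, counted as such also when further matches were present) had a median log2 change of -1.07, with 85.4% weaker past 1.5-fold. Structural loops with matches in the same direction had -0.9996 (122 loops), those with a match at 1 anchor -0.96 (1515 loops) and those with none -0.93 (1997 loops). The difference between the first and the last, -0.14, was smaller than the SD of that difference over chromosomes, 0.21. The 18 structural loops with matches pointing away from each other had -0.85. Dual-function loops with facing matches had -0.75 (118 loops) and those without a match -0.45 (1442 loops), a difference of -0.30 beside an SD of 0.29 over chromosomes. With the motif sought in 30 kb these differences were -0.02 for structural and -0.19 for dual-function loops, and with the looser form -0.01 and -0.13. No match in either 10 kb bin was found for 51.8% of structural loops, whose CTCF peaks were assigned over a wider window of 30 kb.

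Gene starts at anchors divided the categories further, again among loops with a 10 kb summit, 3857 of the 4837 in the structural category. Structural loops with no start of a protein-coding gene in either bin, 2532 in number, had a median log2 change of -1.01, those with a start at 1 anchor -0.84 and the 153 with a start at both -0.69. Dual-function loops had -0.69, -0.55 and -0.22, and the share weaker past 1.5-fold was 58.9%, 46.6% and 22.9%. CRE loops had -0.14, -0.03 and 0.09, with 14.1%, 8.49% and 4.68% weaker and 4.48%, 8.35% and 9.28% stronger. In all 3 categories the change was thus least negative where both anchors held a gene start. The strength without auxin was also lower there, 1.74 against 2.204 for dual-function loops, so start and strength vary together.

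A list of 21 genes of erythroid and progenitor identity was followed in the same way. Of these, 17 had a start in an anchor bin, with 54 loops in all, and Myb, Slc4a1, Hbb-b1 and Hba-a1 had none. The 54 loops had a median log2 change of 0.05, with 8 weaker and 8 stronger past 1.5-fold (14.8% each), beside 36.7% and 2.83% of all loops. They were 25 CRE, 23 dual-function and 6 structural loops, with medians of 0.18, 0.01 and -0.56, so the list was poor in structural loops.

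Myc, the proto-oncogene of growth and proliferation, had 5 loops, of which 4 were weaker past 1.5-fold. Its strongest, a dual-function loop of 1750 kb to chr15:63560001-63570000, had 4.38 without and 2.76 with auxin in mid-G1 and 5.46 and 2.42 in early-G1. Lmo2, a bridging protein of the TAL1 complex, had 3 loops with a median log2 change of 0.39, of which 1 was weaker and 1 stronger past 1.5-fold. The strongest by the mean of both maps, of 100 kb, was the weaker one, with 3.26 without and 1.65 with auxin. Both loops at the start of Gata1, the erythroid master regulator, were stronger past 1.5-fold, and the strongest, of 130 kb, had 1.24 without and 1.89 with auxin in mid-G1 and 1.32 and 2.02 in early-G1. In the G1E line this gene is inactivated.

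The other genes of the list had 3 weaker and 5 stronger loops past 1.5-fold: Kit, Max and Runx1 had 1 weaker each, Max had 2 stronger, and Gata2, Zfpm1 and Runx1 had 1 stronger each. Their strongest loops, by the mean of both maps, differed by less than 1.5-fold. That of Tal1, a bHLH partner of LMO2, had 2.11 and 2.51, that of Ldb1, which bridges distal elements, 2.21 and 2.23, and that of Zfpm1, which encodes the GATA1 cofactor FOG1, 3.802 and 3.39. For Alas2, the erythroid enzyme of haem synthesis, the values were 2.31 and 2.66, for Kit, the stem cell factor receptor, 1.72 and 1.76, and for Runx1 2.37 and 2.39. At Gata2 the strongest loop, to the start of Mcm2, a subunit of the replicative helicase, had 2.74 and 1.94. At Klf1, the erythroid Krüppel-like factor, the single loop was below 1 in both treatments (0.627 and 0.761) and thus not enriched.

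Boundary strength, ΔIS, sets the insulation score at a boundary, on an unlogged scale, against the peak of that score within 120 kb on either side. The authors moved the boundaries called in untreated cells to a local minimum of the mid-G1 insulation profile, so these positions favour the -auxin map, while boundaries found with auxin far from any of them kept their own positions. Which boundaries were placed in which way was not analysed here. Over all boundaries the median ΔIS was 0.499 in -auxin and 0.332 in +auxin cells, a median log2 change of -0.48 (quartiles -1.02 and -0.01, chromosome medians from -0.58 to -0.36). Of 6375 boundaries with a ratio, 2838 (44.5%) were weaker past 1.5-fold and 551 (8.64%) were stronger. Past 2-fold, 1627 (25.5%) were weaker and 285 (4.47%) stronger. Between the prometaphase maps, where the median ΔIS was 0.0937 and 0.0874, 29.3% were weaker and 22.4% stronger.

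Boundaries were grouped by the loops that end at their nearest anchor within 20 kb. Where only structural loops ended there, 1089 boundaries, the median ΔIS was 0.786 in -auxin and 0.431 in +auxin cells, a log2 change of -0.86. Of these, 66.7% (interval 63.8 to 69.4%) were weaker past 1.5-fold and 1.84% stronger, against 44.5% and 8.64% of all boundaries. At dual-function anchors (452 boundaries) the median change was -0.64, with 55.1% weaker, and at anchors shared by loops of several categories (631 boundaries) -0.73, with 60.5% weaker. CRE anchors (537 boundaries) had -0.28, with 28.7% weaker (interval 25.0 to 32.6%) and 9.87% stronger, and uncategorised anchors -0.41. The 3224 boundaries with no anchor in reach had a median ΔIS of 0.200 and 0.149, a median change of -0.29, and the highest share of stronger boundaries, 13.4%. Relative to the median of all boundaries, -0.48, the boundaries at CRE anchors, at uncategorised anchors and without an anchor lay above it, by 0.20, 0.07 and 0.19, and those at structural anchors below it, by 0.38.

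The change also varied with distance and with the number of loops. Boundaries within 20 kb of an anchor had a median log2 change of -0.64, those at 20 to 50 kb -0.44, at 50 to 100 kb -0.27 and beyond 100 kb -0.22, while the median ΔIS without auxin went from 0.826 to 0.108. Boundaries with 1 loop end within 20 kb had -0.54 and those with 6 or more -0.78, with median ΔIS of 0.630 and 1.18 without auxin. With 6 or more loop ends, 63.9% of boundaries were weaker and 0.789% stronger past 1.5-fold.

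The boundary and the loop anchored at it were compared directly. For each boundary with an anchor within 20 kb, the loop that was strongest in early-G1 -auxin cells was taken. Where that loop was weaker by 2-fold or more in mid-G1, the 1187 boundaries had a median log2 change of -0.94 and 74.6% were weaker past 1.5-fold. Where it was weaker by 1.5 to 2-fold the median was -0.68, where it was weaker by less than 1.5-fold -0.37, and where it was not weaker -0.14, with 19.8% of 354 boundaries weaker and 13.8% stronger. Across 3150 boundaries the correlation of both changes was 0.41 (Pearson) and 0.44 (Spearman). Both measures come from the same 2 merged maps, and neighbouring boundaries can share a loop.

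**Figure D4:**
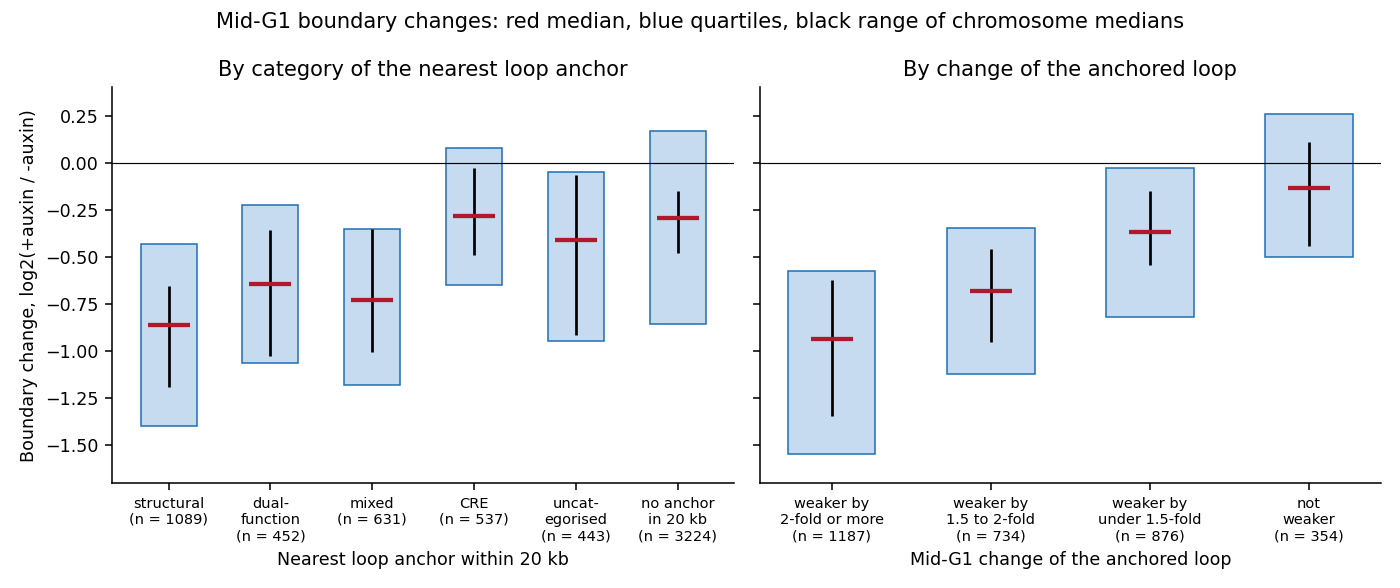
Mid-G1 log2(+auxin / -auxin) of boundary strength (vertical axis) by category of the nearest loop anchor within 20 kb (left) and by the change of the anchored loop (right), with the median in red, the quartiles as a blue box and the lowest to highest chromosome median as a black line. Medians go from -0.86 at structural to -0.28 at CRE anchors, and from -0.94 where the loop was weaker by 2-fold or more to -0.14 where it was not weaker.

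The authors' 5 boundary clusters, which were made from these values among others, were spread unequally over the anchors. Of boundaries at structural anchors, 30.7% belonged to cluster1, the cluster with the lowest median log2 change (-1.53), 49.6% to cluster2 and 17.9% to cluster3, whose values were alike in both treatments. Of boundaries at CRE anchors, 9.31% belonged to cluster1, 35.8% to cluster2 and 46.0% to cluster3. Cluster4, with higher values in +auxin cells, made up 1.84% of boundaries at structural anchors, 8.94% at CRE anchors and 14.4% of those without an anchor. Of the 719 boundaries of cluster5, which the authors treat as mostly spurious, 708 had no anchor within 20 kb, and without this cluster the median change of boundaries without an anchor was -0.30.

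The named boundaries were those with the most extreme changes of each class, among boundaries whose mean ΔIS was at least the median of 0.434. At structural anchors the lowest was chr13:13960001-13970000, which holds no protein-coding gene, with a ΔIS of 1.38 without and 0.0763 with auxin in mid-G1 and 0.932 and 0.100 in early-G1. In prometaphase it had 0.0717 and 0.104, so that with auxin it was no higher in mid-G1 than in mitosis. At dual-function anchors the boundary at an exon of Susd1, whose motif is printed above, at chr4:59360001-59370000, had 1.33 without and 0.0862 with auxin, and the boundary at an exon of Ap3d1, a subunit of the AP-3 adaptor, had 1.21 and 0.0787. At CRE anchors the lowest was at an exon of Slc7a15, an amino acid transporter gene, with 0.883 and 0.0696. Without an anchor, the boundary at an exon of Itga2b, the megakaryocyte integrin CD41, at chr11:102310001-102320000, had 1.36 without and 0.228 with auxin in mid-G1 and 1.29 and 0.152 in early-G1.

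Boundaries that were stronger in mid-G1 with auxin were stronger in early-G1 too in all named cases. At CRE anchors the highest change was at an exon of Ubap2l, a stress granule protein, at chr3:89810001-89820000, with 0.229 without and 1.01 with auxin in mid-G1, 0.255 and 0.936 in early-G1 and 0.149 and 0.221 in prometaphase. At mixed anchors it was at the start of Irf2bp1, a transcriptional corepressor, with 0.284 and 0.7995. At dual-function anchors it was in an intron of Lpcat3, an enzyme of phospholipid remodelling, with 0.308 and 0.799, followed by the start of Gsk3a, a glycogen synthase kinase, at chr7:26020001-26030000, with 0.418 and 0.944. At structural anchors it was in an intron of Arntl, a circadian transcription factor, with 0.346 and 0.838. Without an anchor it was at the starts of 1700120B22Rik and Herc4, a ubiquitin ligase, with 0.241 and 0.734.

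The 3 strongest boundaries of the -auxin map were lower with auxin and still strong. The start of Hoxc10, a homeobox gene, at chr15:102790001-102800000, had a ΔIS of 2.89 without and 1.95 with auxin, and 0.460 and 0.509 in prometaphase. The boundary at the starts of the histone genes Hist2h2bb and Hist2h3b, at chr3:96070001-96080000, had 2.75 and 2.04. A further boundary on the chromosome of Hoxc10, at chr15:103000001-103010000, had 2.57 and 1.41, a log2 change of -0.87. All 3 remained above the median -auxin boundary in +auxin cells. By early-G1 -auxin ΔIS, boundaries of the strongest of 4 classes had a median change of -0.67 with 57.5% weaker and 0.125% stronger, and those of the weakest -0.25 with 37.6% weaker and 22.1% stronger.

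A match of the motif lay within the 30 kb around 2059 boundaries, whose median log2 change was -0.60, and in none of the 3 bins around 4317, with -0.41. The 304 boundaries with matches on both strands had -0.63 and the highest median ΔIS without auxin, 0.891. A gene start in the boundary bin made less difference: 944 boundaries with a start had a median change of -0.51 and 5432 without had -0.48. With a match the medians were -0.59 with and -0.60 without a start, and without a match -0.45 and -0.40.

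Loops were then divided by whether a boundary lay between their anchors, at least 20 kb inside both. The split used positions and no loop strengths, but boundaries called in untreated cells had been placed at minima of the mid-G1 -auxin insulation, where contacts across them are few in that map. The split is therefore not independent of the -auxin values, and the part of this in the result was not tested. Over all sizes, CRE loops crossing none had a median log2 change of -0.04 with 5.75% stronger, those crossing 1 boundary 0.08 with 10.9% stronger, and the 1108 crossing 2 or more -0.02 with 4.78% stronger. These shares do not separate the number of boundaries from loop size. Of CRE loops up to 150 kb, 96 crossed 1 boundary and were at a median of 1.12 in -auxin and 1.47 in +auxin cells, a log2 change of 0.38 (quartiles 0.19 and 0.67). Of these, 32 (33.3%, interval 24.7 to 43.2%) were stronger past 1.5-fold and 0 were weaker (interval up to 3.85%). The 1716 CRE loops of that size that crossed none had 1.42 and 1.39, a change of -0.04, and 5.54% were stronger (interval 4.55 to 6.72%). Between 150 and 250 kb, the 206 crossing 1 boundary had 1.41 and 1.64, a change of 0.25 with 15.5% stronger, and the 624 crossing none -0.03 with 5.61% stronger. Beyond 250 kb the difference was smaller: CRE loops of 250 to 500 kb had 0.02 with 1 boundary crossed and -0.07 with none.

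In early-G1, in other libraries, the short crossing CRE loops had 1.24 without and 1.60 with auxin, and 25.0% were stronger, and in ana/telophase 1.24 and 1.44. In prometaphase they had 1.08 and 1.06. Without auxin the medians of both sets were lower in mid-G1 than in early-G1, from 1.24 to 1.12 for crossing loops and from 1.48 to 1.42 for those crossing none. With auxin the medians of crossing and non-crossing loops were 1.47 and 1.39. Crossing loops were more often called with auxin only, 61.5% against 24.4% of those crossing none, so entry into the table differs between both sets, and its part in the result was not tested.

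Counting only boundaries of at least the median strength as crossed, an alternative chosen after seeing the data, gave 63 loops with a change of 0.50, 41.3% of them stronger. That boundary strength was the mean of the same 2 mid-G1 maps, and the 63 loops had a -auxin median of 1.05. This value is therefore not independent of the main result. Leaving out cluster5 boundaries or chromosome 3, also chosen after seeing the data, gave 0.38 in both cases. Structural loops of the same sizes did not differ by crossing. Up to 150 kb they had -0.62 with 1 boundary crossed (44 loops) and -0.66 with none, and between 150 and 250 kb -0.87 and -0.89. Dual-function loops up to 150 kb had 0.18 with 1 boundary crossed (48 loops) and -0.47 with none, and 24 of the 48 but only 9.81% of the others were called with auxin only. Between 150 and 250 kb they were weaker with auxin in both sets, with -0.36 (143 loops) and -0.51 (561 loops). CRE loops whose strongest crossed boundary, by its early-G1 -auxin ΔIS, was weaker past 1.5-fold had a median of 0.07 (1096 loops), and the others -0.03 (955 loops). The sets were not matched for size or strength, with median -auxin strengths of 1.67 and 1.87. Across these 2051 loops the correlation between loop and boundary change was -0.19 (Pearson) and -0.18 (Spearman), with many loops sharing a boundary. The correlations were also negative for structural (-0.12 and -0.14), dual-function (-0.14 and -0.17) and uncategorised loops (-0.11 and -0.09). Both changes come from the same 2 merged maps. The insulation score counts contacts across the boundary, which can include those of short crossing loops. A negative correlation can follow from that alone, and its part was not tested.

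**Figure D5:**
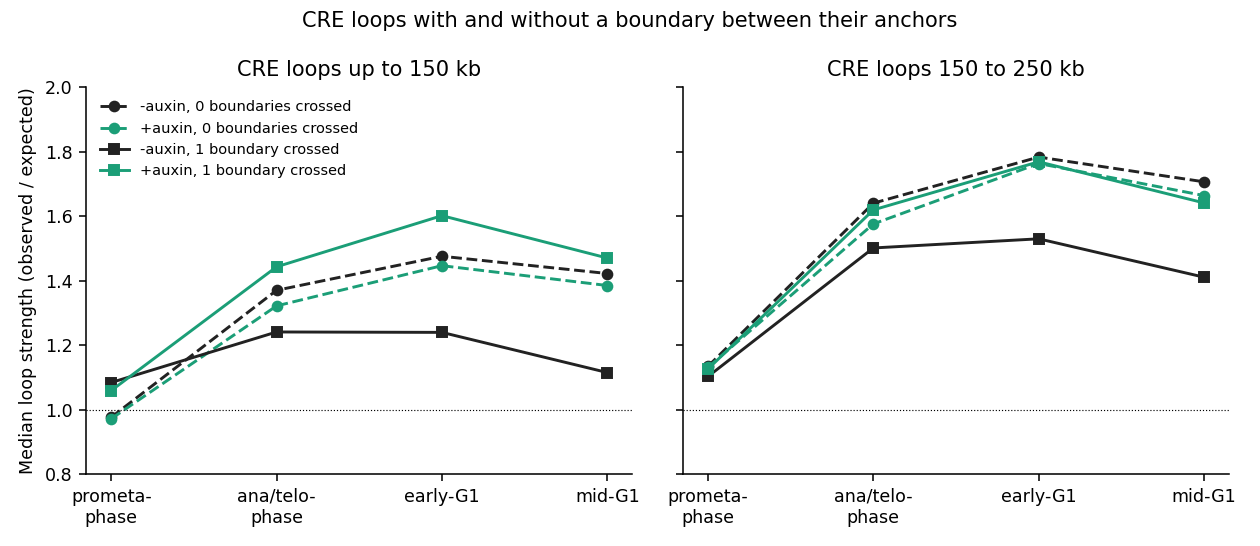
Median strength (observed / expected, vertical axis, starting at 0.8) of CRE loops up to 150 kb (left) and of 150 to 250 kb (right) in the 4 stages (horizontal axis), for loops with no boundary (dashed) or 1 boundary (solid) between their anchors, -auxin in black and +auxin in green. The solid black line lies lowest after mitosis, at 1.12 in mid-G1 on the left. There the solid green line stands at 1.60 in early-G1 and 1.47 in mid-G1, where the dashed lines stand at 1.42 and 1.39.

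Mid-G1 was the latest stage measured, and structural and dual-function loops differed most there. From the earliest stage to mid-G1, the median structural loop had log2 changes of -0.08, -0.50, -0.71 and -0.87, the median dual-function loop -0.05, -0.25, -0.38 and -0.44, and the median CRE loop -0.01, -0.01, 0.01 and -0.02. From early-G1 to mid-G1 the median structural loop went from 2.03 to 2.32 without auxin, with 82.1% of loops higher in mid-G1, and from 1.23 to 1.28 with auxin, with 58.0% higher. CRE loops went from 1.66 to 1.62 without and from 1.67 to 1.60 with auxin. Boundaries at structural anchors went from 0.663 to 0.786 without and from 0.401 to 0.431 with auxin.

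The loops that were weaker in mid-G1 were largely weaker before it. Of the 6014 loops weaker past 1.5-fold, 99.0% had a negative log2 change in early-G1 and 73.7% were weaker past 1.5-fold there as well, beside 74.7% and 31.4% of all loops in that stage. In ana/telophase the shares were 96.1% and 49.7%, beside 73.6% and 20.4% of all loops. In prometaphase they were 58.5% and 14.3%, beside 54.4% and 9.52% of all loops. Of the 463 stronger loops, 94.8% had a positive change in early-G1 and 43.8% were stronger past 1.5-fold, where 2.55% of all loops were. In prometaphase 52.9% had a positive change and 11.02% were stronger, where 6.46% of all loops were. Of 2838 weaker boundaries 88.9% had a negative change in early-G1, beside 70.1% of all boundaries, and of 551 stronger ones 73.5% had a positive change. Across all loops the change in mid-G1 correlated with that in early-G1 at 0.85 (Pearson) and 0.85 (Spearman), and with that in prometaphase at 0.11 and 0.11, over 16369 and 16367 loops that are the same sites in different libraries.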

How the data were processed

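In situ Hi-C was measured in 22 libraries, of which the 6 mid-G1 libraries without triptolide were analysed, grouped by the sample labels; the 12 of other stages served for reference and the 4 with triptolide were not used. Reads had been processed by the authors with HiC-Pro and bowtie2 on mm9, replicates merged, maps made with juicer_tools, boundaries called with rGMAP and loops by HICCUPS, modified, on maps of 10 and 25 kb. The deposited boundary strength is a signal, the ΔIS of unlogged insulation; loop strength was deposited as the ratio of observed over expected contacts in 9 pixels. Categories, first calls and clusters are the authors' labels. Depth per sample is not in the tables used, so no depth or precision of single values is given.

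No pseudocount entered the log2 ratio of +auxin to -auxin; 1 boundary and 1 loop with a value of 0 have no ratio in mid-G1. Merging left 1 value per treatment, so no test was run. Anchors and boundaries were annotated with the protein-coding genes of GENCODE vM1, and sequences are from the NCBIM37 assembly, which is mm9; no coordinate lies beyond its 20 chromosomes. Named loops had a 10 kb summit and a mean strength of at least 1.5: per category the 2 strongest without auxin and the 2 lowest and 2 highest changes. Named boundaries had at least the median mean strength of 0.434: per anchor class the 2 lowest and 2 highest changes, and the 3 strongest without auxin. The naming rule left out chromosome 18. Only some are printed, and for erythroid genes the loop strongest in the mean of both maps. The members and lists were chosen with earlier results of these data known. Alternatives covered pseudocounts, filters, summit width, chromosome 3, centring, fold, anchor distance, size classes and motif. Calculations used Python 3.11.15, numpy 2.4.6 and pandas 2.3.3, and were tested on simulated data.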

Additional observations from a re-analysis of the deposited data

How the results depend on the processing

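No paired analysis was possible from the tables used, because the tables hold 1 merged value per treatment. The replicate numbers of the labels had no values there to pair or leave out. The maps of the single replicates, which the paper lists, were not analysed here, so pairing or leaving out replicates was not tried on them. A median counts as moved when it shifts by more than its SD over chromosomes, and a count when it shifts by over 1.5 times. Of 155 recomputed values, 98 did neither. In each case the cause was not tested.

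With a pseudocount of 0.5 the median loop change was -0.29 for all, -0.67 for structural, -0.33 for dual-function and -0.23 for uncategorised loops, with 145 loops stronger (1 structural, 27 dual-function, 93 CRE, 24 uncategorised) and 184 CRE loops weaker. Among loops of mean strength 1.5 or more it was -0.50, -0.98, -0.54 and -0.38, and -0.0682 for CRE loops. With 10 kb summits it was -0.44 for all and -0.51 for dual-function loops, and the size difference was -0.69 for structural, -0.0859 for dual-function and -0.32 for uncategorised loops. The ratio of means gave -0.49 for all and -0.97 for structural loops. Centred on all loops, structural loops were at -0.49, dual-function at -0.0632, CRE at 0.36 and uncategorised at 0.0772, both with the sign turned, with 3011 weaker (structural 2073, dual-function 566, CRE 64, uncategorised 308) and 1998 stronger (45, 386, 1243 and 324). Past 2-fold, 2748 loops were weaker (1917, 505, 58 and 268) and 49 stronger (0, 9, 33 and 7).

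For boundaries, a pseudocount of 0.1 gave -0.35 for all and -0.18 without an anchor, with 249 stronger. Centred on all boundaries, the values were -0.38 at structural, -0.16 at dual-function and -0.25 at mixed anchors, and the sign reversed at CRE anchors (0.20), uncategorised anchors (0.0706) and without an anchor (0.19). Past 2-fold, 1627 were weaker and 285 stronger. Leaving out chromosome 3 or cluster5 and other anchor distances moved no median by more than that SD. Other motif settings brought the difference between loops with facing and without matches from -0.14 to -0.02 and -0.01 for structural and from -0.30 to -0.19 and -0.13 for dual-function loops, shifts below its SD of 0.21 and 0.29.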
